A study of Juglans regia with 12 samples.

Results

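The miRNA families miR162, miR168 and miR403 were examined in flower buds of field-grown Persian walnut (Juglans regia), in an early-flowering and a late-flowering type. Their members were the sequences of the deposited miRNA table whose matched miRNA name carries one of these 3 numbers, 25 of 931 listed sequences. miR162 has 8 of them, miR168 has 10 and miR403 has 7. The early-flowering libraries come from precocious walnut (ZS) buds with the stage label Early flower, and the late-flowering libraries from late fruiting walnut (WS) buds labelled Late flower. Walnut type and bud stage therefore cannot be told apart. There were 3 miRNA libraries of each type, and the labels name neither trees nor cultivars. Because nothing says that replicates came from separate trees, the p-values cover the spread from library to library, which may be technical.

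Plant miRNAs are cut from hairpin precursors by Dicer-like 1 (DCL1), and one strand of the excised duplex is loaded into an ARGONAUTE protein, most often AGO1. In Arabidopsis, miR162 directs cleavage of DCL1 mRNA, miR168 directs cleavage of AGO1 mRNA, and miR403 directs cleavage of AGO2 mRNA. These families thus act back on the machinery that makes and uses small RNAs. The gene table of this study does not pair its IDs with names (0 of 31425 IDs matched the reference gene table), so the walnut DCL1, AGO1 and AGO2 transcripts were not analysed here, and the tissue label was not checked against marker genes.

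The sequences that hold nearly all counts of each family are shown to let the forms be compared. They are written 5′ to 3′ as DNA letters, with bases 2 to 8, the seed, in capitals. The seed is used here only to group forms, since plant miRNAs pair with their targets along nearly their whole length. For miR162 these are the leading 3p sequence and its main variant, which share a seed:
jre-MIR162_2-2: tCGATAAAcctctgcatccag
jre-MIR162_2-1: tCGATAAAcctctgcatccaa
For miR168 they are the leading 5p sequence, a 5p form that starts 1 base later, and the leading 3p sequence, each with its own seed:
jre-MIR168-1: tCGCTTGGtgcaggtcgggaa
jre-MIR168-8: cGCTTGGTgcaggtcgggaac
jre-MIR168-6: cCCGCCTTgcatcaactgaat
For miR403 they are the leading 3p sequence, its 22-base form, its main variant and the leading 5p sequence, the first 3 with one seed:
jre-MIR403-3: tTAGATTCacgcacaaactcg
jre-MIR403-2: tTAGATTCacgcacaaactcgt
jre-MIR403-5: tTAGATTCacgcacaaacttg
jre-MIR403-4: aGTTTGTGcgtgaatcgaacc

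Within a family and arm, the forms with at least 60 counts are near-identical. Substitutions are counted from 1 at the 5′ end of the leading sequence. jre-MIR162_2-1 differs from jre-MIR162_2-2 by G21A, jre-MIR162_2-4 by A20G and jre-MIR162_1-4 by A8G. jre-MIR403-5 differs from jre-MIR403-3 by C20T and jre-MIR403-6 by A17G. jre-MIR168-2 is jre-MIR168-1 without its last 2 bases. It is not among the sequences shown, although its 457 counts exceed the 373 of jre-MIR168-8. jre-MIR168-7 starts 1 base before jre-MIR168-6, ends 1 base before it, and differs by A20T. Reads of such close forms may be split between them by the counting, so the family sums are the firmer values. Of the 25 members, 14 had at least 60 counts over the 6 libraries, and these were also the 14 that passed the filter on low counts. The other 11 had 1 to 41 counts each and 153 in all, 0.127% of the members' 120329 counts.

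The listed miRNA counts came to 309697 to 646408 per library. These totals count matched miRNAs and leave out all other small RNA. Levels are in CPM, the count relative to all listed counts of its library, scaled with TMM factors. On this scale 3 counts, the floor set by counting error alone, equal 4.76 to 10.3 CPM. Early-flowering replicate 1 had the lowest total, and the miR403 results in which it stands apart are given with and without it. Families were compared with edgeR's quasi-likelihood test over all 37 families that passed the filter, of which 5 were called at an adjusted p under 0.05 (13.5%). In this fit 9 families were below an unadjusted p of 0.05 (24.3%), and DESeq2 called 6 (16.2%).

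The edgeR test called 0 of the 3 families as different between the bud types, against 13.5% of all 37. At an unadjusted p under 0.05 it was also 0, against 24.3%, and with DESeq2 0, against 16.2%. With 3 families, a count of 0 is near these shares, and it does not show that the types are equal. The library ranges of the 3 families overlapped in 3 of 3, where 24.3% of the 37 families had ranges without overlap. miR162 was on average the higher in early-flowering buds, miR403 the lower, and miR168 was nearly level. By CPM the order was miR403, miR162 and miR168 in the mean of either type. Over all libraries miR403 made up 2.61% of the listed miRNA counts, miR162 0.690% and miR168 0.578%.

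**Figure D1:**
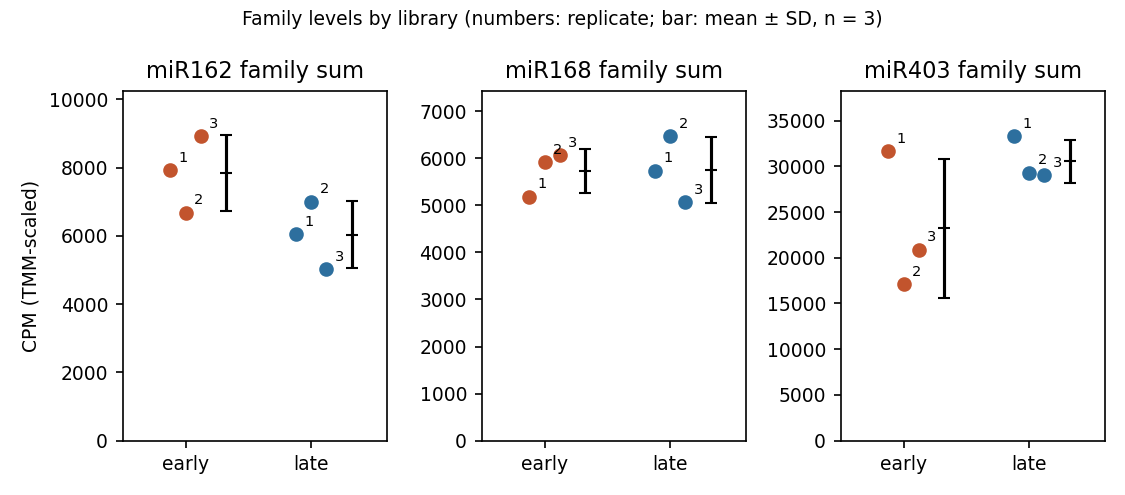
Summed level of each family in CPM (TMM-scaled, y axis from 0) in the 3 early-flowering libraries on the left and the 3 late-flowering libraries on the right of each panel; points are libraries numbered by replicate, and bars show mean ± SD. The types overlap in each panel, and in miR403 early-flowering replicate 1 (31645 CPM) lies among the late-flowering libraries.

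miR162, the family that acts on DCL1 in Arabidopsis, stood at 7929, 6679 and 8918 CPM in early-flowering buds, against 6053, 6996 and 5031 CPM in late-flowering buds. The groups overlapped, since early-flowering replicate 2 was below late-flowering replicate 2. The means were 7842 ± 1122 and 6027 ± 983 CPM (SD, n = 3 each), a log2 fold change of 0.38 (SE 0.19, 95% interval −0.062 to 0.82, edgeR adjusted p = 0.229). Without early-flowering replicate 3 the log2 fold change was 0.089, and without late-flowering replicate 3 it was 0.19.

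Nearly all of the miR162 family was 3p sequence. The leading form jre-MIR162_2-2 held 78.9% of the family's counts and jre-MIR162_2-1 held 19.5%. jre-MIR162_2-2 stood at 6454, 4912 and 7172 CPM in early-flowering buds, against 4950, 5584 and 3872 CPM in late-flowering buds. Early-flowering replicate 2 fell within the late-flowering range (log2 0.36, 95% interval −0.19 to 0.92, edgeR adjusted p = 0.285). As for the family sum, the log2 fold change was near 0 without early-flowering replicate 3, at 0.052, and it was 0.15 without late-flowering replicate 3. jre-MIR162_2-1 stood at 1328, 1671 and 1573 CPM in early-flowering buds, against 1011, 1313 and 1080 CPM in late-flowering buds. Its groups did not overlap, with early-flowering replicate 1 just above late-flowering replicate 2, and it did not pass the test (log2 0.43, edgeR adjusted p = 0.203). Another pair of groups without overlap was that of the rare jre-MIR162_2-4, at 107, 58.8 and 90.5 CPM in early-flowering buds, against 57.9, 47.2 and 48.6 CPM in late-flowering buds (log2 0.72, 95% interval −0.016 to 1.4, edgeR adjusted p = 0.153). The margin was thin, since the nearest values came from 36 counts in early-flowering replicate 2 and 33 in late-flowering replicate 1. jre-MIR162_2-1 and jre-MIR162_2-4 were the only ones of the 14 tested member sequences whose groups did not overlap, against 37.4% of all 243 tested sequences. The groups of jre-MIR162_1-4, the rarest tested miR162 form, overlapped. It stood at 37.8, 31.0 and 57.1 CPM in early-flowering buds, against 22.8, 36.5 and 18.7 CPM in late-flowering buds (log2 0.71, edgeR adjusted p = 0.245). Without early-flowering replicate 3 its log2 fold change was 0.22.

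The share of the G21A form overlapped between the types. jre-MIR162_2-1 amounted to 20.6%, 34.0% and 21.9% of jre-MIR162_2-2 in early-flowering buds, against 20.4%, 23.5% and 27.9% in late-flowering buds. The highest value was that of early-flowering replicate 2, which had the lowest jre-MIR162_2-2 level of its type. The 5p arm of miR162 was close to undetected. It gave 2 counts in early-flowering replicate 2 and 2 in late-flowering replicate 1, and 0 in the other 4 libraries. At the floor of 3 counts, a count of 0 allows a share of up to 0.131% in early-flowering replicate 1, the shallowest. In late-flowering replicate 3 it allows up to 0.112%. These limits cover counting error alone and leave out the spread between libraries.

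miR168, the family that acts on AGO1 in Arabidopsis, was nearly level between the types. It stood at 5184, 5921 and 6072 CPM in early-flowering buds, against 5737, 6468 and 5061 CPM in late-flowering buds, with the ranges almost coinciding. The means were 5726 ± 475 and 5755 ± 704 CPM (SD, n = 3 each), a log2 fold change of −0.0073 (SE 0.17, edgeR adjusted p = 0.967). The 95% interval of −0.40 to 0.39 bounds the difference, and the sign changed with the scaling and with the library left out. This was the median fold change of the 37 families and the highest p among them. The coefficient of variation within a type was 8.29% in early-flowering and 12.2% in late-flowering buds. Over the 37 families, which include some with low counts, the medians were 23.4% in early-flowering and 18.9% in late-flowering buds. Counted from the lowest, miR168 ranked 4 in early-flowering and 8 in late-flowering buds. A low spread was thus not particular to it, and miR827 was lower in both types, at 7.87% and 7.54%.

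The 3p sequence was the leading form of miR168. jre-MIR168-6 held 59.3% of the family's counts and jre-MIR168-1, the 5p sequence that begins with U in RNA and corresponds to the strand that guides AGO1 cleavage in Arabidopsis, held 35.1%. Laid against each other without gaps, both face 19 bases with 14 Watson-Crick pairs, 3 G:U pairs and 2 mismatches, and leave 2 bases over at either 3′ end, the geometry of a Dicer product. No hairpin sequence was used for this. jre-MIR168-6 begins with C, so sequences that begin with T made up 38.3% of miR168 counts, against 99.99% for miR162, 98.3% for miR403 and 91.4% for the whole table.

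jre-MIR168-6 stood at 3210, 3559 and 2989 CPM in early-flowering buds, against 3312, 4236 and 3349 CPM in late-flowering buds (log2 −0.16, edgeR adjusted p = 0.584). For jre-MIR168-1 the levels were 1727, 2006 and 2724 CPM in early-flowering buds, against 2063, 1929 and 1441 CPM in late-flowering buds (log2 0.25, edgeR adjusted p = 0.484). The groups of either arm overlapped. Without early-flowering replicate 3, the library with the highest level, the log2 fold change of jre-MIR168-1 was −0.13.

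Summed by arm, 5p sequences made up 37.3%, 39.1% and 50.1% of miR168 counts in early-flowering buds, against 41.7%, 33.7% and 33.1% in late-flowering buds. The 3p arm thus exceeded the 5p arm in 5 of 6 libraries, and the arms were about equal in early-flowering replicate 3, with 1918 5p and 1907 3p counts. The mean 5p share was 42.2 ± 6.97% in early-flowering buds and 36.2 ± 4.82% in late-flowering buds (SD, n = 3 each), a difference of 5.99 percentage points (exact two-sided permutation p = 0.3, or 0.45 adjusted over 6 such tests). Without early-flowering replicate 3 the difference was 1.998 percentage points (exact permutation p = 0.6). With 3 against 3 libraries the smallest p is 0.1, so no single exact test here could pass.

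**Figure D2:**
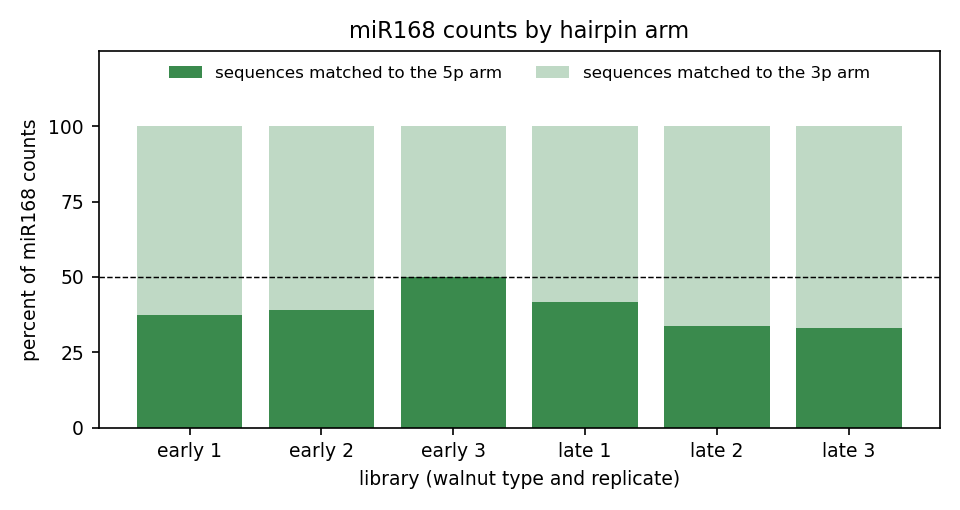
Share of miR168 counts (percent, y axis) from sequences matched to the 5p arm (dark) and the 3p arm (light) in the 3 early-flowering and then the 3 late-flowering libraries; the dashed line marks equal arms. The 5p share runs from 33.1% to 50.1%, and its highest value is that of early-flowering replicate 3.

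Minor miR168 forms were rare. The form shifted by 1 base, jre-MIR168-8, stood at 127, 108 and 130 CPM in early-flowering buds, against 135, 112 and 110 CPM in late-flowering buds (log2 0.030, edgeR adjusted p = 0.928). The 19-base jre-MIR168-2 stood at 68.8, 180 and 175 CPM in early-flowering buds, against 177, 127 and 107 CPM in late-flowering buds (log2 0.062, edgeR adjusted p = 0.912). Its lowest value belongs to the shallowest library, early-flowering replicate 1, with 20 counts. The shifted 3p form jre-MIR168-7, which begins with T, had 6 to 21 counts per library, and its levels overlapped between the types (log2 0.46, edgeR adjusted p = 0.389). It was 0.643%, 0.964% and 0.850% of jre-MIR168-6 in early-flowering buds, against 0.583%, 0.507% and 0.558% in late-flowering buds.

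miR403, the family that acts on AGO2 in Arabidopsis, had the highest counts of the 3, and its early-flowering libraries were divided. It stood at 31645, 17080 and 20889 CPM in early-flowering buds, against 33295, 29321 and 29011 CPM in late-flowering buds. Early-flowering replicate 1 lay inside the late-flowering range, and the other two early-flowering libraries lay below it. The means were 23205 ± 7554 and 30542 ± 2389 CPM (SD, n = 3 each), a log2 fold change of −0.40 (SE 0.27, 95% interval −1.01 to 0.22, edgeR adjusted p = 0.341). As a plain share of listed counts, miR403 made up 2.97%, 1.71% and 2.04% in early-flowering buds, against 3.08%, 3.06% and 3.28% in late-flowering buds, where the groups just failed to overlap. A plain share depends on the counts of all other listed sequences. How many other families separated on plain shares was not counted. In CPM, 24.3% of the 37 tested families had ranges without overlap, so such a separation is not unusual here. Scaled by total counts, the log2 fold change was −0.49 and did not pass (edgeR adjusted p = 0.225). With TMM factors and without early-flowering replicate 1, the log2 fold change was −0.71 and passed (edgeR adjusted p = 0.0452). That fit called 19 of 42 families (45.2%), 9 of them lower (21.4%). The call of miR403 thus rested on the libraries that entered. The division of early-flowering replicate 1 from replicates 2 and 3 was not particular to miR403. It stood at 169 CPM in miR1515, against 71.9 and 90.5 CPM in replicates 2 and 3. In miR530 the values were 32678 against 14036 and 15635 CPM, and miR408 and miR398 were also highest in replicate 1. In miR167 and miR482, replicate 1 was below all late-flowering libraries.

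The leading 3p form jre-MIR403-3 held 93.0% of miR403 counts and followed the family sum. It stood at 28973, 15754 and 19489 CPM in early-flowering buds, against 31211, 27396 and 26956 CPM in late-flowering buds (log2 −0.41, 95% interval −1.0 to 0.17, edgeR adjusted p = 0.258). Without early-flowering replicate 1 its log2 fold change was −0.72 and still did not pass (edgeR adjusted p = 0.0580). Its 5p partner jre-MIR403-4 stood at 561, 278 and 281 CPM in early-flowering buds, against 600, 526 and 572 CPM in late-flowering buds (log2 −0.61, edgeR adjusted p = 0.214). In these sequences too, early-flowering replicate 1 lay with the late-flowering libraries. Without it, jre-MIR403-4 had a log2 fold change of −1.05 and an edgeR adjusted p of 0.0192, the 1 member sequence that passed in that fit, which called 54 of 265 sequences (20.4%), 32 of them lower (12.1%). Laid against jre-MIR403-3 without gaps, jre-MIR403-4 faces 19 bases with 18 Watson-Crick pairs and 1 mismatch, again with 2 bases over at either 3′ end.

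Early-flowering replicate 1 also stood apart in the 22-base form. jre-MIR403-2 stood at 1166, 497 and 500.0 CPM in early-flowering buds, against 635, 708 and 719 CPM in late-flowering buds (log2 0.063, edgeR adjusted p = 0.907). Its level in replicate 1 was above all 5 other libraries, while those of replicates 2 and 3 were below all late-flowering ones, and without replicate 1 the log2 fold change was −0.51. The C20T form jre-MIR403-5 stood at 888, 516 and 568 CPM in early-flowering buds, against 783, 637 and 678 CPM in late-flowering buds (log2 −0.093, edgeR adjusted p = 0.823). Without early-flowering replicate 1 its log2 fold change was −0.40 (edgeR adjusted p = 0.232), and leaving out early-flowering replicate 2 or late-flowering replicate 1 gave −0.0077 or −0.0060, in that order. The A17G form jre-MIR403-6 had 17 to 44 counts per library (log2 −0.52, edgeR adjusted p = 0.294).

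Inside the miR403 family, the shares of jre-MIR403-4 and jre-MIR403-5 separated the types by small margins. Those of jre-MIR403-2, jre-MIR403-3 and jre-MIR403-6 overlapped. jre-MIR403-5 was 3.06%, 3.28% and 2.92% of jre-MIR403-3 in early-flowering buds, against 2.51%, 2.33% and 2.52% in late-flowering buds. The 5p arm was nearly all jre-MIR403-4, with 163 5p counts in early-flowering replicate 1. It made up 1.77%, 1.64% and 1.36% of miR403 counts in early-flowering buds, against 1.81%, 1.81% and 1.98% in late-flowering buds. The mean difference was −0.27 percentage points (exact two-sided permutation p = 0.1, the smallest possible, or 0.2 adjusted over 6 tests). Without early-flowering replicate 3 that difference was −0.16 percentage points. Of the 11 member sequences with at least 60 counts that do not lead their family, 3 had a family share without overlap between the types, namely jre-MIR168-7, jre-MIR403-4 and jre-MIR403-5. Among all 200 such sequences the figure was 32.5%, so the members' count is near the background.

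**Figure D3:**
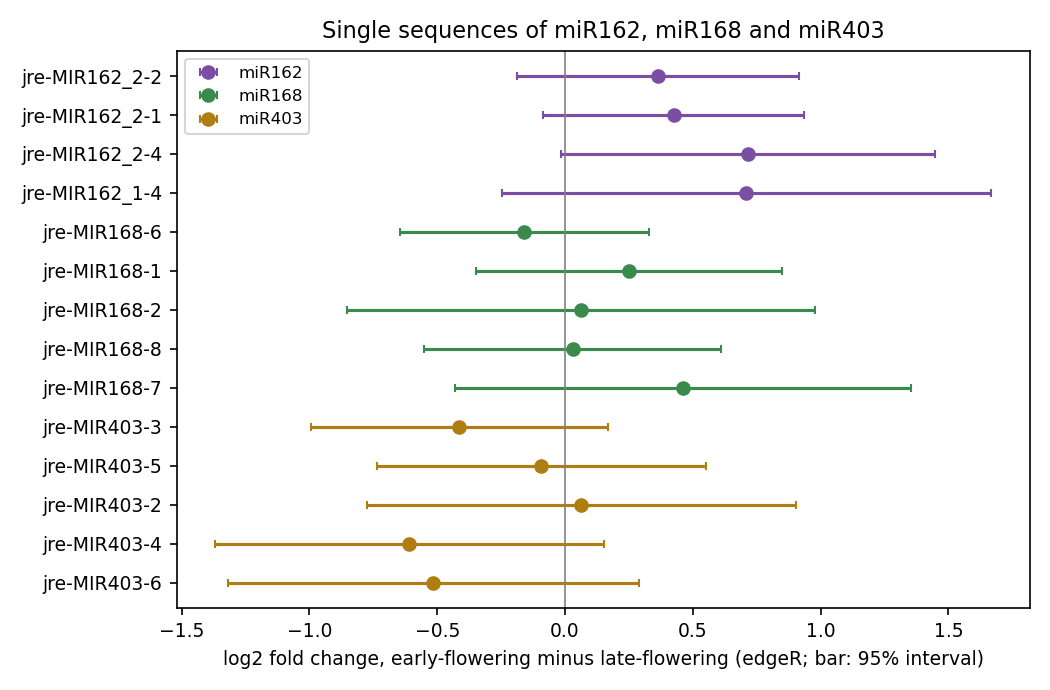
Log2 fold change (x axis, early-flowering minus late-flowering, edgeR) of the 14 tested sequences, ordered by family and abundance; bars are 95% intervals. All 14 intervals include 0, with the 4 miR162 points above 0 and 4 of the 5 miR403 points below it.

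Across the single sequences, 0 of 14 passed in edgeR, also 0 at an unadjusted p under 0.05 and 0 in DESeq2. By comparison, 28 of all 243 tested sequences passed in edgeR (11.5%), 83 did so at an unadjusted p under 0.05 (34.2%), and 36 passed in DESeq2 (14.8%). Of the 14, 9 had positive and 5 negative fold changes. The median log2 fold change was 0.57 over the 4 miR162 sequences, 0.062 over the 5 miR168 sequences and −0.41 over the 5 miR403 sequences, and 0.13 over all 243. Forms of one family share most of their bases, so they are not independent.

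**Figure D4:**
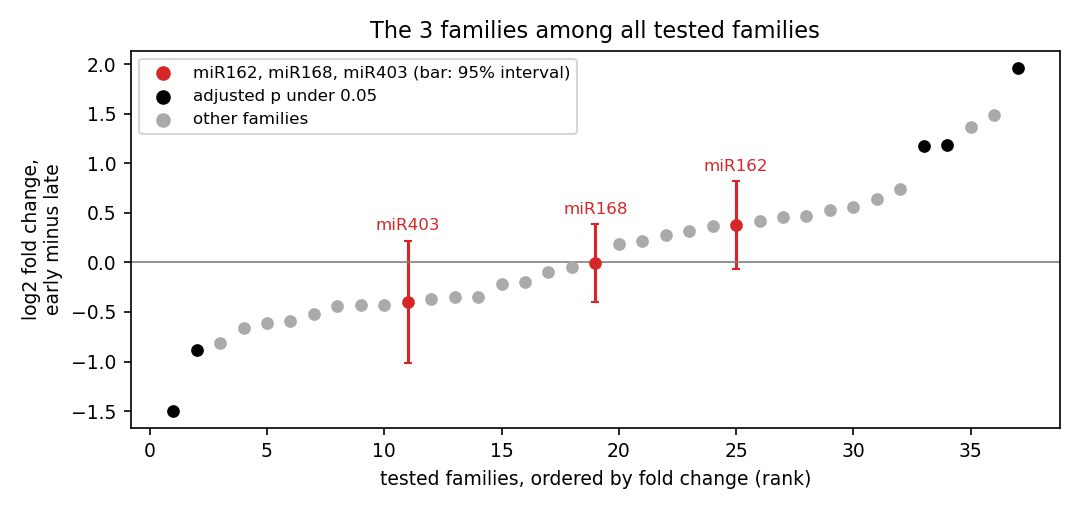
Log2 fold change (y axis, early-flowering minus late-flowering) of the 37 tested families in rank order (x axis), with miR162, miR168 and miR403 in red with 95% intervals and the 5 families with an adjusted p under 0.05 in black. The 3 families hold ranks 25, 19 and 11 from the lowest, in the middle of the range.

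Ratios of family counts inside a library need no scaling. They are ratios of counts, and how far counts of different sequences stand for amounts of RNA was not tested. Counts of miR168 per count of miR162 were 0.654, 0.887 and 0.681 in early-flowering buds, against 0.948, 0.925 and 1.01 in late-flowering buds. miR162 exceeded miR168 in all early-flowering libraries and in 2 of 3 late-flowering ones, where the families were nearly equal. The mean log2 ratio was −0.45 ± 0.24 in early-flowering buds and −0.061 ± 0.063 in late-flowering buds (SD, n = 3 each), a difference of −0.39 (exact two-sided permutation p = 0.1, or 0.2 adjusted over 6 tests).

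Counts of miR403 per count of miR162 were 3.99, 2.56 and 2.34 in early-flowering buds, against 5.50, 4.19 and 5.77 in late-flowering buds. This ratio showed the widest gap between types, with a mean log2 ratio of 1.53 ± 0.41 in early-flowering buds and 2.35 ± 0.25 in late-flowering buds (SD, n = 3 each). The difference of −0.83 corresponds to a 1.77-fold lower ratio in early-flowering buds (exact two-sided permutation p = 0.1, or 0.2 adjusted over 6 tests). Early-flowering replicate 1 was on the early-flowering side here, although close to late-flowering replicate 2.

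Counts of miR403 per count of miR168 were 6.10, 2.88 and 3.44 in early-flowering buds, against 5.80, 4.53 and 5.73 in late-flowering buds. The groups overlapped through early-flowering replicate 1, the highest of all 6 libraries (difference of log2 ratios −0.44, exact two-sided permutation p = 0.4, or 0.48 adjusted over 6 tests). Without early-flowering replicate 1 the difference was −0.76 (exact permutation p = 0.1), and without early-flowering replicate 2 it was −0.22 (exact permutation p = 0.7). Ratios without overlap were common in these libraries, at 31.3% of 630 pairs of tested families. This count leaves out 1 tested family, miR8051, which had a count of 0 in early-flowering replicate 1. miR162 gave such a ratio with 15 of 35 other families, and it was the higher member in early-flowering buds in 13 of them and the lower in 2. miR168 gave 10 of 35 and miR403 gave 9 of 35.

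**Figure D5:**
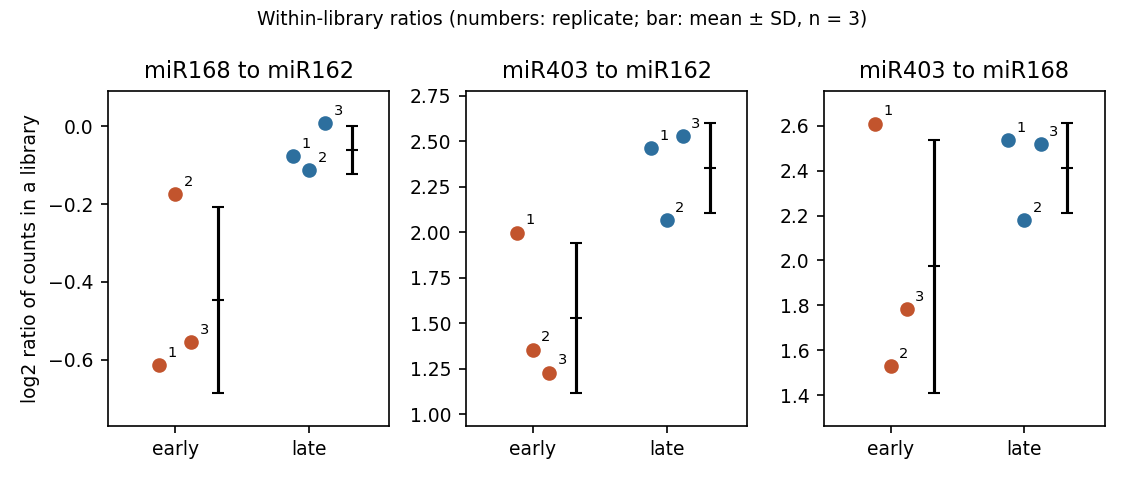
Log2 ratio of family counts inside each library (y axis, not starting at 0, with a scale of its own in each panel) for 3 pairs of families, with early-flowering libraries on the left and late-flowering libraries on the right; points are numbered by replicate and bars show mean ± SD. The types separate for both ratios to miR162, and they overlap for miR403 to miR168, where early-flowering replicate 1 is the highest point.

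Families with the most similar profiles were found by the root mean square difference of log2 CPM, each family centred on its own mean over the 6 libraries, as a description without a test. For miR162 the closest were miR164 (0.218), miR168 (0.240) and miR159 (0.260). For miR168 they were miR164 (0.179), miR166 (0.202) and miR396 (0.221). For miR403 they were miR1515 (0.174), miR167 (0.176) and miR482 (0.211). Their log2 fold changes were −0.60, −0.62 and −0.35, and none passed the edgeR test. In the same order, the log2 fold changes were 0.22, −0.0073 and 0.53 for the families closest to miR162. They were 0.22, −0.048 and −0.10 for those closest to miR168. The profiles come from the same 6 libraries, so a shared sign is in part set by the choice. By these lists, miR162 and miR403 were not among each other's closest families.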

How the data were processed

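Raw counts per mature miRNA sequence and library were deposited by the authors, with a matched miRNA name. The sources used here do not state how reads were mapped and named or how small RNA libraries were built. Per the labels' protocols, every sample went through a poly(A) mRNA library kit, the miRNA samples included, which leaves the origin of the small RNA reads unexplained. The submitters' processing notes list FastQC, HISAT2, Cufflinks and DESeq2 with no role. The mRNA table was not used here, because its IDs carry no names.

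Sample titles gave groups and replicate numbers. A family is the number in a sequence's matched name (miR156 and miR157 joined, arms summed). The test was edgeR 4.0.16 (R 4.3.3), with filterByExpr (minimum count 10), TMM factors of the filtered sequences, and robust quasi-likelihood fits with walnut type as the only term. Benjamini-Hochberg adjustment covered all tested families (37) or sequences (243), with a threshold of 0.05. SE and intervals were derived from the F statistic. Arms came from the matched name or from 16 shared contiguous bases. By this rule jre-MIR162_1-1 and jre-MIR162_1-4 received none and stayed out of the arm shares. The rule with up to 2 substitutions places both on the 3p arm, and the comparison of forms used that rule. Ratios and arm shares were compared by exact permutation. Replicate libraries differed beyond counting noise (chi-square per degree of freedom 32.8 to 150.5). Alternatives were DESeq2 1.42.0, other scalings, no filter, the replicate number as a block, and leaving out single libraries. The named features were the 3 family sums, each sequence with at least 60 counts, and the 3 closest families by profile. The members and lists were chosen with earlier results of these data known.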

Additional observations from a re-analysis of the deposited data

How the results depend on the processing

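Scalings by TMM of the family sums, by TMM without the most abundant sequence, and the arm rule with up to 2 substitutions were chosen after seeing the data. miR162 kept a positive fold change without a call in all 14 alternatives (over left-out libraries 0.089 to 0.47). miR403 kept a negative one (−0.71 to −0.28), called without early-flowering replicate 1. miR168 changed sign over left-out libraries (−0.23 to 0.055) and was 0.072 with TMM of the family sums. For families, leaving out libraries gave 3 to 19 calls, where 19 came without early-flowering replicate 1, and the 3 arose without late-flowering replicate 3. For sequences it gave 2 to 54, of which members were 0 to 1. The replicate block gave 17 sequences and 4 families, and it changed no member's call. Deviations of same-numbered libraries were not positively related (correlations across sequences −0.098, −0.076 and −0.34), and 0 correlated best with its own number. Of the 14 single sequences, 10 kept their sign in every alternative. Over left-out libraries jre-MIR168-1 ran from −0.13 to 0.36, jre-MIR168-2 from −0.25 to 0.34, jre-MIR168-8 from −0.20 to 0.13 and jre-MIR403-2 from −0.51 to 0.18. With TMM without the most abundant sequence, jre-MIR168-2 was −0.0092, jre-MIR168-8 −0.062 and jre-MIR403-2 −0.056. With DESeq2 size factors jre-MIR168-8 was −0.016 and jre-MIR403-2 −0.024, with total counts −0.049 and −0.046, and with DESeq2 −0.028 and −0.028, in that order. With the replicate block jre-MIR403-2 was −0.061. The miR162 5p share, from 4 counts, changed sign over left-out libraries (−0.019 to 0.016 percentage points). The ratios and the other arm shares kept their direction in every alternative. The miR162 5p share has no value with sequences of at least 60 counts only, since none is 5p. The cause of these shifts was not tested. The median family log2 fold change was −0.0073, and −0.11 under TMM without the most abundant sequence.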
